A study of Mus musculus with 12 samples.

Results

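The genes of oxidative phosphorylation were followed across 12 libraries of single-cell RNA from mouse CD4 T cells. Members were chosen by symbol alone: every gene of the deposited table whose symbol starts with Nduf, Sdha, Sdhb, Sdhc, Sdhd, Uqcr, Cox4, Cox5, Cox6, Cox7, Cox8 or Atp5 was taken as a nuclear member, and every gene starting with mt-, the prefix of the mitochondrial chromosome, as a mitochondrial one, with pseudogenes marked -ps left out. This gave 107 members, 94 nuclear and 13 mitochondrial, of 18601 genes. The mice had received transferred Th1 cells, the interferon-producing helper T cell type. In the control libraries the transferred cells were Il23r wt/eGFP, with 1 wild-type and 1 reporter copy of the gene of the interleukin 23 receptor. In the libraries labelled KO they were Il23r eGFP/eGFP, with the green fluorescent reporter allele on both copies. The reporter allele was thus present in both groups. CD4 T cells were isolated from the spleen, the colon lamina propria (the connective tissue under the gut lining), the small intestine lamina propria and the colon epithelium. There were 2 libraries of each genotype, numbered 1 and 2, for the spleen and the colon lamina propria, and 1 of each, numbered 2, for the other tissues. The labels used here do not say whether libraries came from separate mice, so each p-value measures the spread between these libraries, which may be technical. The sources used here do not give the strain, age or own T cells of the recipient mice, and whether the KO label means no receptor protein in these cells was not measured.

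The respiratory chain sits in the inner mitochondrial membrane. Complex I (NADH dehydrogenase) and complex II (succinate dehydrogenase) pass electrons to ubiquinone, complex III (cytochrome bc1) passes them to cytochrome c, and complex IV (cytochrome c oxidase) passes them to oxygen. Complexes I, III and IV pump protons, and complex V, the ATP synthase, uses the returning protons to make ATP. Most subunits are encoded in the nucleus and imported. The small circular mitochondrial genome encodes a few core subunits of complexes I, III, IV and V and none of complex II, and it is transcribed inside the organelle by its own polymerase, so the 2 gene groups are made by separate machinery for the same complexes. Quiescent T cells rely largely on oxidative phosphorylation, and activated, dividing T cells build more mitochondria while also raising glycolysis.

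The libraries held 981 to 4079 cells and 3107528 to 14292028 UMIs (unique molecular identifiers, each marking 1 captured RNA molecule), and the median cell had 1863 to 5711 UMIs. Levels are given as CPM, UMIs of a gene per 1000000 UMIs of the library, summed over its cells. Of 32077 distinct cell barcodes, 677 occurred in more than 1 library. All 5 T cell markers of the list that the table holds were detected in every library, with a summed level of 3164 to 6025 CPM, and Cd4 itself was at 199.6 to 371 CPM. In 3 of 13 clusters, holding 1760 of 32763 cells, the T cell markers were low, and these clusters are called CD3-low. One, cluster 10 with 321 cells, was led by haemoglobin, neutrophil and epithelial genes, another by Il22 and the last by MHC class II genes. CD3-low cells made up 0.216% to 38.2% of a library, with the highest share in the KO library of the small intestine, where the marker list of innate lymphoid and NK cells summed to 5451 CPM. Il23r was at up to 8.48 CPM in control and up to 34.1 CPM in KO libraries, so its counts did not separate the labels. The assay reads the 3′ end of a transcript, which can lie outside the altered part of the gene, and this comparison therefore checks nothing.

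The mitochondrial members were among the most abundant transcripts. Because each molecule is tagged once at its 3′ end, CPM does not scale with transcript length, although capture can differ between transcripts. The 13 genes had a median level of 1049 CPM, against 208 CPM for the nuclear members (means over 12 libraries). A gene of complex V and those of complex IV were at the top. mt-Atp6, an ATP synthase subunit of the proton channel (chrM:7927-8607 on the mouse mitochondrial genome, GENCODE vM21 on GRCm38), had a mean of 5629 CPM and ranged from 4252 to 7243 CPM. The core subunits of cytochrome c oxidase followed, with mt-Co3 at 4374 CPM, mt-Co1 at 4299.7 CPM and mt-Co2 at 2287 CPM. mt-Cytb, the cytochrome b of complex III, was at 1957 CPM. The 7 complex I genes spread widely. mt-Nd1 was at 1877 CPM, mt-Nd4 at 1049 CPM and mt-Nd2 at 451 CPM, while mt-Nd3 was at 146 CPM, mt-Nd5 at 113 CPM and mt-Nd6 at 5.32 CPM. mt-Nd6 is the one protein gene on the other strand. Some genes share bases: mt-Atp8 and mt-Atp6 overlap by 43 bases, mt-Nd4l and mt-Nd4 by 7, and mt-Nd5 and mt-Nd6 by 14 on opposite strands. Each of the first 2 pairs is also carried on 1 messenger RNA, so the low counts of mt-Atp8 (14.4 to 78.2 CPM) and mt-Nd4l (20.8 to 77.9 CPM) are uncertain as levels of these genes.

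Among the nuclear members, 91 of 94 were detected in every library and 70 had a mean above 100 CPM. Medians by complex were 163 CPM for the 36 genes of complex I, 114 CPM for the 4 of complex II, 301 CPM for the 8 of complex III, 431 CPM for the 17 of complex IV and 435 CPM for the 15 of complex V. The 14 assembly factors and related genes, which help build the complexes, had a median of 22.6 CPM. The 2 highest of complexes IV, V and III were Cox4i1 (1088 CPM) and Cox8a (931 CPM) of complex IV, Atp5l (906 CPM) and Atp5h (776 CPM) of complex V, Uqcrh (862 CPM), the hinge protein of complex III, and Uqcrb (389.6 CPM), also of complex III. In complex I, Ndufa13 (567 CPM) and Ndufa3 (404 CPM) led. In complex II, Sdhb (218 CPM), the iron-sulfur subunit, and Sdha (148 CPM), the flavoprotein, stood above the membrane anchors Sdhd (79.7 CPM) and Sdhc (55.1 CPM). Most levels were steady: for the 85 nuclear members of at least 10 CPM the highest library was a median of 1.69 times the lowest, and 65 of them stayed under 2. For the 12 mitochondrial members of at least 10 CPM the median ratio was 1.97.

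Summed, the nuclear members took 2.66% and 2.62% of all UMIs in spleen control libraries 1 and 2 and 2.60% and 2.91% in spleen KO libraries 1 and 2. In the colon lamina propria they took 2.11% and 2.67% in control and 2.28% and 2.48% in KO libraries. The small intestine held 2.57% in control and 2.20% in KO, and the colon epithelium 2.78% and 3.01%. The lowest value was thus in colon control 1 and the highest in colon epithelium KO, and spleen and colon lamina propria overlapped. The mitochondrial members took 1.91% and 2.70% in spleen control and 1.81% and 2.30% in spleen KO libraries. In the colon lamina propria they took 1.69% and 2.33% in control and 1.77% and 2.34% in KO libraries. They took 2.41% and 2.74% in the control and KO libraries of the small intestine and 2.12% and 2.60% in those of the colon epithelium. Here the libraries parted by replicate number: the 4 with number 1 lay at 1.69% to 1.91% and the 8 with number 2 at 2.12% to 2.74%. Counting error was small beside these gaps, with 95% Wilson intervals that reached at most 0.0181 percentage points to either side. Without the CD3-low clusters the mitochondrial share of the small intestine KO library was 2.31% and that of colon epithelium KO 1.89%, so the latter then lay below its control library at 2.04%.

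**Figure D1:**
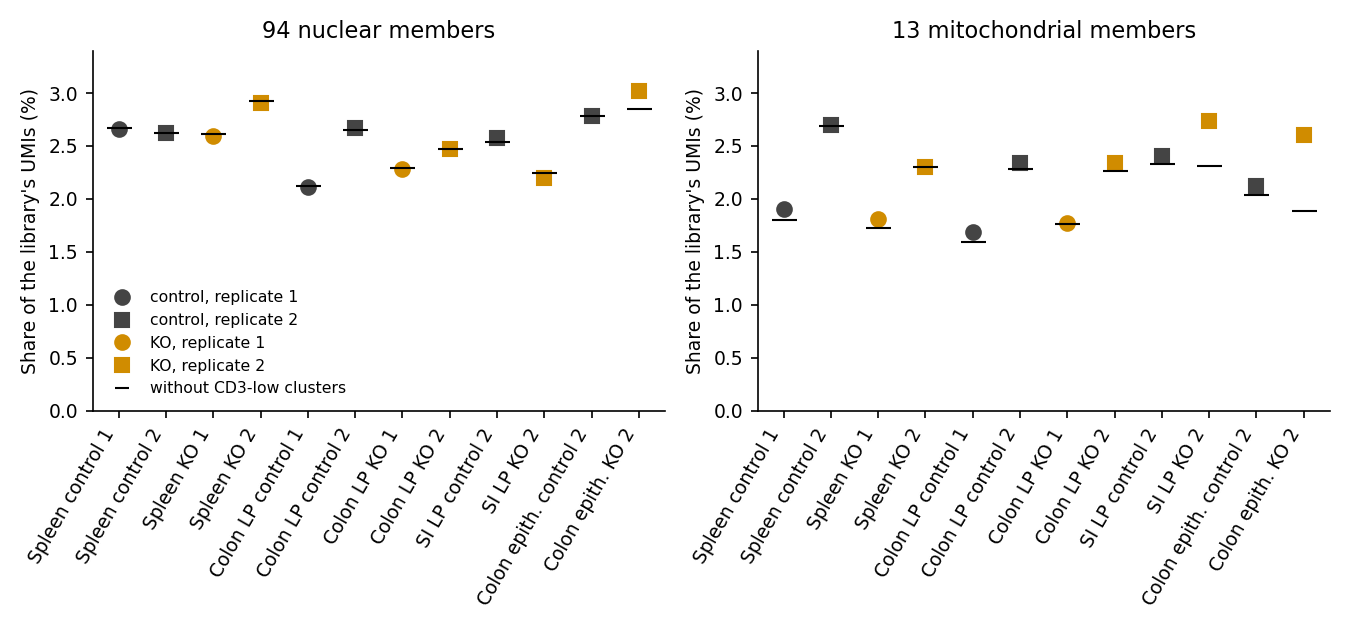
Share of all UMIs (percent, vertical axis) taken by the nuclear and by the mitochondrial members in each of the 12 libraries, arranged by tissue and genotype, coloured by genotype and shaped by replicate number, with a black dash at the same share without the CD3-low clusters. The mitochondrial share was 1.69% to 1.91% in the 4 libraries with replicate number 1 and 2.12% to 2.74% in the 8 with number 2.

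The replicate numbers match the batch numbers of the deposited cell table in all 32763 cells, and the split between them was carried by a few abundant mitochondrial genes. Within spleen and colon lamina propria, which have both numbers, mt-Nd1 was at 1265 to 1465 CPM in the libraries with number 1 and at 1917 to 2340.5 CPM in those with number 2. mt-Atp6, mt-Co3, mt-Co2 and mt-Cytb likewise did not overlap, which makes 5 of 12 mitochondrial members of at least 10 CPM that were higher with number 2. Among nuclear members 5 of 85 did so, against 7.56% of 6908 genes of that level. mt-Nd3 went the other way in the spleen, where it was at 209 and 189.9 CPM in spleen control 1 and KO 1 and at 97.9 and 116 CPM in spleen control 2 and KO 2. Among nuclear genes Sdhaf4, an assembly factor of complex II, was at 18.1 and 19.2 CPM in colon control 1 and KO 1 and at 36.1 and 41.9 CPM in colon control 2 and KO 2. The numbers also mark libraries of different depth per cell, with medians of 3914 to 5711 UMIs for number 1 and 1863 to 2996 for number 2, and the part of depth in these values was not tested.

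**Figure D2:**
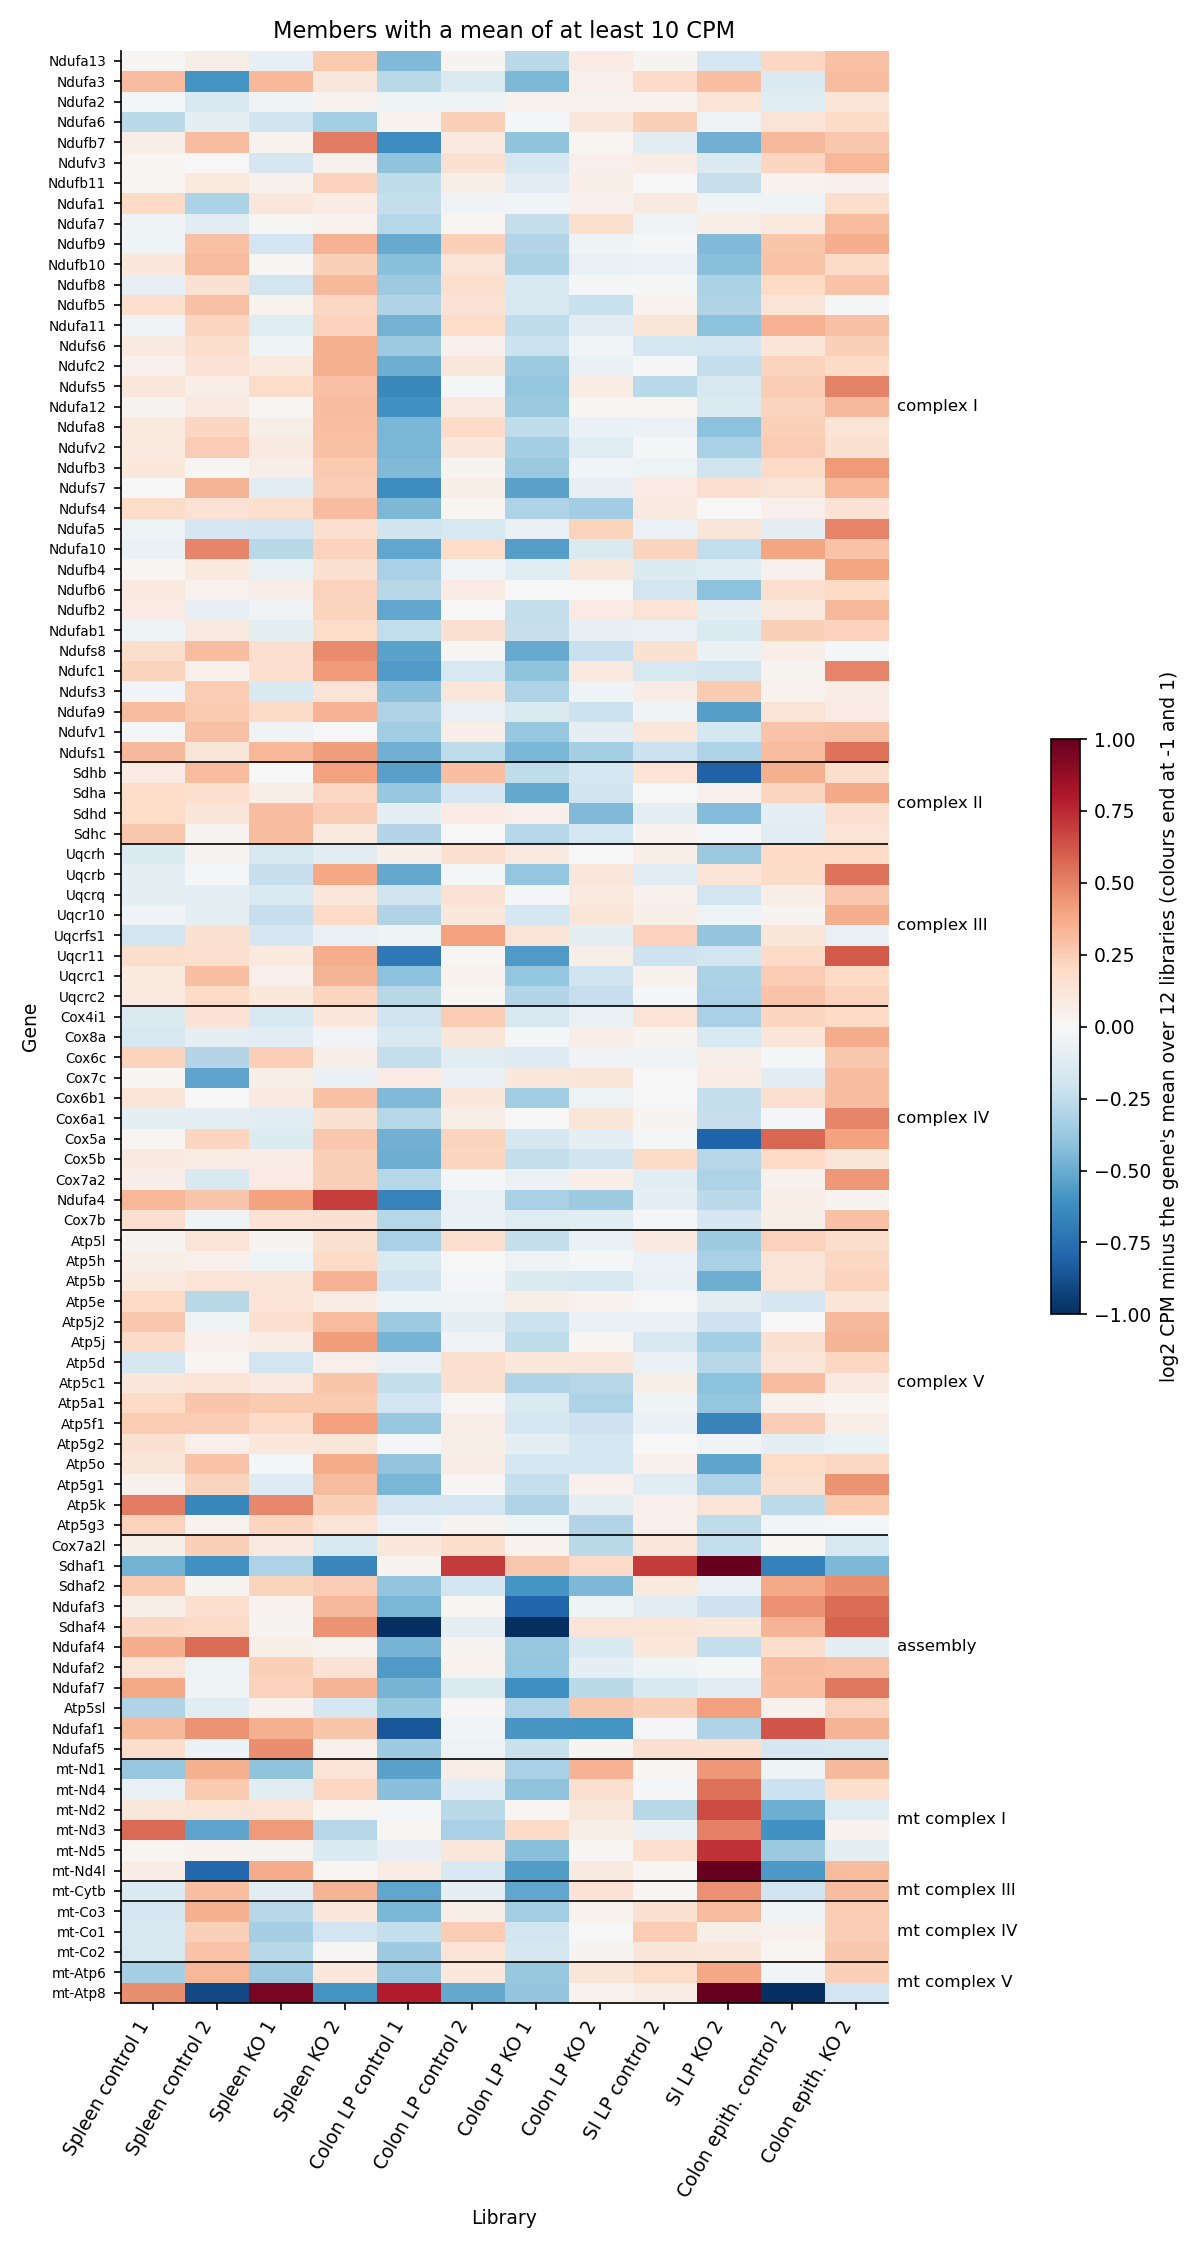
Level of 96 of the 97 members of at least 10 CPM (rows, by complex, nuclear above mitochondrial) in the 12 libraries (columns), as log2 CPM minus the gene's mean log2 CPM over the 12 libraries, with colours ending at -1 and 1. Colon lamina propria control 1 was the lowest library for 46 of 85 nuclear members, and the small intestine KO library was the highest for 9 of 13 mitochondrial members.

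Between colon lamina propria and spleen, the nuclear members differed little. With 4 libraries of each tissue, edgeR's quasi-likelihood test with Benjamini-Hochberg adjustment over 11636 genes called 2 of 92 nuclear members tested higher in the colon and 3 lower. Over all genes it called 14.6% higher and 10.4% lower, so the members' shares were below the background. The median log2 fold change was -0.05 for nuclear members and -0.03 for all genes. None of the 13 mitochondrial members was called by edgeR, DESeq2 or limma-voom, and none had an unadjusted p under 0.05 in edgeR. Their median was 0.16, with 11 positive. Fold changes here are fitted after scaling libraries by TMM factors, which correct for a few genes taking a large part of a library, and can therefore differ from the ratio of CPM.

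Of the complex II genes, an assembly factor was called and no subunit. Sdhaf1, which protects the iron-sulfur subunit while complex II is built, was at 32.3, 29.6, 36.3 and 28.6 CPM in the spleen libraries (control 1 and 2, KO 1 and 2) and 45.7, 72.9, 54.1 and 51.4 CPM in those of the colon lamina propria in the same order. All 4 colon libraries lay above all 4 spleen libraries (56.0 ± 11.8 and 31.7 ± 3.44 CPM, SD, n = 4 each). The log2 fold change was 1.05 ± 0.16 (SE), with an adjusted p of 0.00435 (edgeR, Benjamini-Hochberg). Sdha, Sdhb, Sdhc and Sdhd were not called, and all 4 fold changes were below 0. By cluster, Sdhaf1 was highest in the CD3-low clusters 11 (150.8 CPM) and 12 (118 CPM), and the call was kept without these clusters.

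In complex I, Ndufa6, an accessory subunit of the matrix arm, was at 316, 357, 332 and 302 CPM in the spleen libraries (control 1 and 2, KO 1 and 2) and 390.4, 450.4, 378 and 413 CPM in those of the colon lamina propria in the same order. The groups did not overlap, at 408 ± 31.8 and 327 ± 23.9 CPM, and the log2 fold change was 0.55 ± 0.12 with an edgeR adjusted p of 0.0164. Ndufs1, the core subunit with the most iron-sulfur clusters, went the other way, at 46.5, 40.3, 46.6 and 49.5 CPM in the spleen libraries (control 1 and 2, KO 1 and 2) and 26.5, 31.2, 27.0 and 29.4 CPM in those of the colon lamina propria in the same order. Every colon library was below every spleen library, with a log2 fold change of -0.44 ± 0.12 and an edgeR adjusted p of 0.0336. Ndufaf1, an assembly factor of the membrane arm of complex I, was at 10.8 ± 2.78 CPM in the colon and 19.3 ± 1.02 CPM in the spleen (log2 fold change -0.60 ± 0.17, edgeR adjusted p 0.0405). Ndufa4, named for complex I and since assigned to complex IV, was at 467, 449, 489.8 and 599.8 CPM in the spleen libraries (control 1 and 2, KO 1 and 2) and 234, 353, 296 and 289 CPM in those of the colon lamina propria in the same order. It fell in the colon without overlap, with a log2 fold change of -0.54 ± 0.15 and an edgeR adjusted p of 0.0335. In all, 27 of the 92 nuclear members tested did not overlap between the 2 tissues in CPM without TMM factors, the called ones among them. The share of all genes without overlap is not given here.

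Of these 5 calls, that of Sdhaf1 alone was made under every alternative, with log2 fold changes of 0.82 to 1.48. Leaving out 1 library at a time gave 1 or 2 nuclear members higher and 0 to 2 lower; the lower count was 0 without any of 7 of the 8 libraries. With the replicate number as a block the test called 7 higher (adding Atp5d, Cox7c, Cox8a, Uqcrfs1 and Uqcrh, against 19.9% of all genes) and 6 lower (against 17.3%). With library totals in place of TMM factors, the median of all genes moved from -0.03 to -0.26, and 1 member was higher and 11 were lower (all genes 10.7% and 17.8%). Uqcrh (0.41 ± 0.13, edgeR adjusted p 0.0574) was thus called under some settings and not under others. Stromal marker genes summed to 56.0 to 104 CPM in the colon lamina propria and to at most 1.2 CPM in the other tissues, and their part in these differences was not tested. In sums over all cells of a library, as tested here, fewer cells of a type and less RNA per cell cannot be told apart. The tissues were not compared within clusters.

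**Figure D3:**
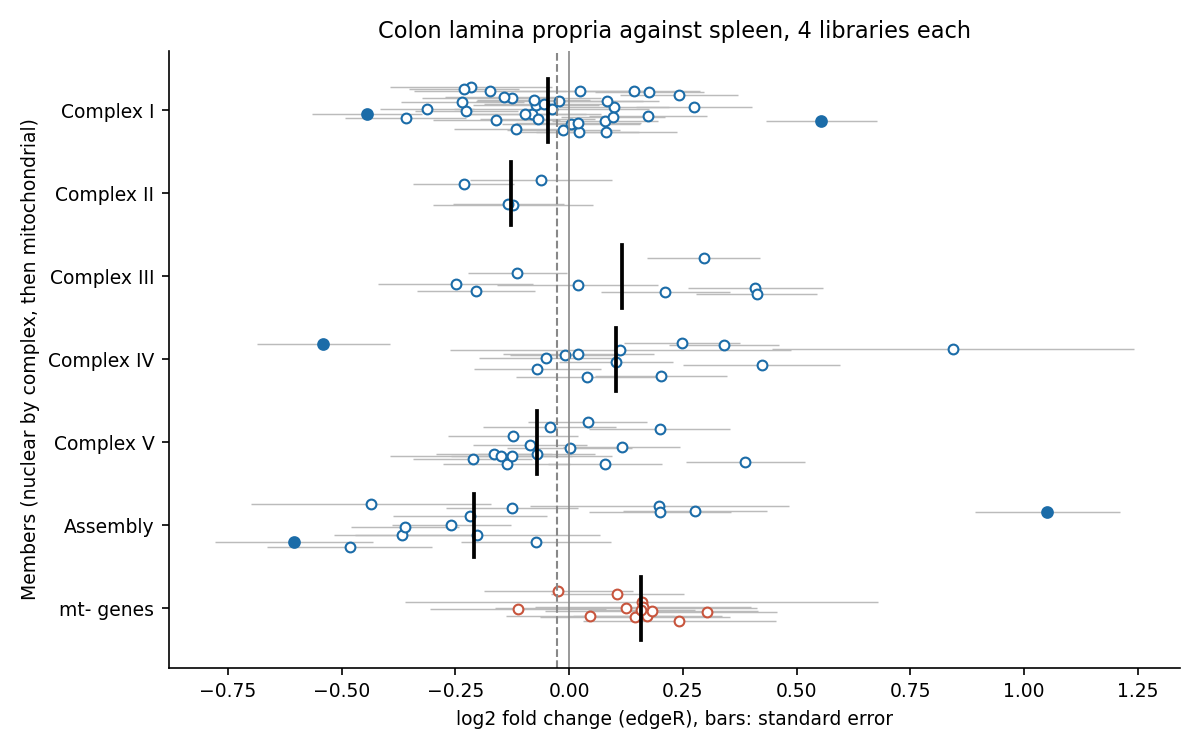
Log2 fold change of colon lamina propria over spleen (edgeR, horizontal axis) of each member, by complex and gene group, with bars of 1 standard error, filled marks for members called at an adjusted p under 0.05, a black line at each group's median and a dashed line at the median of all genes. Sdhaf1 at 1.05 and Ndufa6 at 0.55 were called higher and Ndufaf1, Ndufa4 and Ndufs1 lower; Cox4i2 and Cox6a2 lie outside the axis.

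Start regions were read to show what the nuclear promoters of this pathway look like. RefSeq windows of 300 bases (250 before and 50 after the start, GRCm38.p6) matched 76 of 94 nuclear members; the RefSeq start lay within 100 bases of the GENCODE gene's start for 62 of them and farther away for 14, Sdhaf1 among them. Nuclear respiratory genes are known targets of NRF1 and of ETS family factors such as GABP, and 3 motifs were searched on both strands: the ETS core CCGGAAG, the NRF1 motif TGCGCA and the YY1 core AAGATGG, of which the first and the last can share 3 letters where they meet. At least 1 of the 3 was in 40 of 76 windows (52.6%), against 21.0% of all 27025 windows and 41.0% of the 5302 windows of other genes expressed here. The ETS core was in 19 of 76 members' windows and in 22.9% of those of the other expressed genes. The NRF1 motif was in 20 (26.3%) and 16.9%, and the YY1 core in 9 (11.8%) and 8.73%. These windows, whose starts lie within 37 bases of GENCODE's, are shown because their genes moved in different ways, with motif letters in capitals: Ndufaf1 (chr2:119662785-119663084, minus strand), lower in the colon, with 1 ETS core, Ndufa6 (chr15:82354242-82354541, minus strand) with 2 NRF1 motifs, and Sdhd (chr9:50603800-50604099, minus strand), a complex II anchor higher in cycling cells, with 2 NRF1 motifs and 1 ETS core. The sequences run 5′ to 3′ on the gene's strand.
Ndufaf1: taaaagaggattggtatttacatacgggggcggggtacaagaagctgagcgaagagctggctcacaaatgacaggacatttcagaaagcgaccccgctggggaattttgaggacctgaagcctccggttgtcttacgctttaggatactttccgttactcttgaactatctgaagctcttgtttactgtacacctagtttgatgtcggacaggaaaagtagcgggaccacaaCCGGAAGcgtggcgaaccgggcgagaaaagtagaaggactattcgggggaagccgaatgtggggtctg
Ndufa6: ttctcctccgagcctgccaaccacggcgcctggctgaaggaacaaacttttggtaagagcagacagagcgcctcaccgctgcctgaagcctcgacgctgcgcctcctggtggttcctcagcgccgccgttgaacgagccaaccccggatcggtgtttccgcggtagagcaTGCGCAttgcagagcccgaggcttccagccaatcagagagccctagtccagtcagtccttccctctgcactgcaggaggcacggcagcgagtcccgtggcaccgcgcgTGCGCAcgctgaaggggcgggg
Sdhd: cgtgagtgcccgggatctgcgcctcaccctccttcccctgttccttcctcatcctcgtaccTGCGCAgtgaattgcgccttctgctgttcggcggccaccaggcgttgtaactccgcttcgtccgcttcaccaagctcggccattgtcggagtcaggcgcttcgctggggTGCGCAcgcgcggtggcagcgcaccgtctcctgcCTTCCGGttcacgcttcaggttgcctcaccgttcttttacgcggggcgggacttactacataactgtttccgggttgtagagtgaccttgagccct
A match is a string of letters, not a measured binding site.

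The colon epithelium is the gut lining itself, and CD4 T cells there lie between epithelial cells. Its 2 libraries were compared with the 4 of the colon lamina propria in a fit over all 12 libraries; this comparison, the one with the small intestine and the one with the spleen share the colon lamina propria libraries. The edgeR test with Benjamini-Hochberg adjustment called 4 of 92 nuclear members tested higher and 1 lower, against 6.21% and 8.61% of 12044 genes. Sdhaf1 was the lower one, at 28.2 and 33.0 CPM in control and KO epithelium, below all 4 colon lamina propria libraries (45.7 to 72.9 CPM). Its log2 fold change was -1.13 ± 0.19 (edgeR adjusted p 0.00521). Ndufs1 was at 46.2 and 54.0 CPM against 28.5 ± 2.16 CPM, with a log2 fold change of 0.55 ± 0.12 (edgeR adjusted p 0.0146). Sdhaf2, which helps attach the flavin to Sdha, rose by 0.56 ± 0.12 (edgeR adjusted p 0.0148). Ndufaf1 rose by 0.71 ± 0.17 and Ndufaf7, a methyltransferase that acts in complex I assembly, by 0.52 ± 0.15 (edgeR adjusted p 0.0225 and 0.0415). For all 5 the epithelial libraries did not overlap those of the lamina propria. The same held for 51 of the 92 nuclear members tested, so non-overlap, judged on CPM without TMM factors, does not set these 5 apart. Its share over all genes is not given here.

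These epithelial calls rested on few libraries. Both epithelial libraries also have replicate number 2, while the colon lamina propria has both numbers, and the main fit had no term for it. Without either epithelial library none of the 5 was called, and with libraries of replicate number 2 alone or thinned to the same total of 3107528 UMIs only Sdhaf1 was. With the replicate number as a block the adjusted p of Ndufaf7 was 0.0599 (edgeR, log2 fold change 0.53 ± 0.16), and Sdhaf1, Sdhaf2, Ndufs1 and Ndufaf1 were called (adjusted p 0.00760, 0.0158, 0.0172 and 0.0415). With library totals in place of scaling factors 9 nuclear members were higher and 1 was lower, while the median of all genes moved from 0.03 to 0.28. The share of all genes called under that setting is not given here, so these counts cannot be set against a background. No mitochondrial member was called, with 2 at an unadjusted p under 0.05 in edgeR and a median of -0.07. DESeq2 called 2 of them lower, as it did 1654 of 12044 genes, and limma-voom called none. Epithelial markers summed to 797 CPM in the epithelium KO library and to 2.1 to 97.2 CPM in the other 11. With the CD3-low clusters left out, mt-Nd2 and mt-Nd5 were called lower in the epithelium (11.5% of all genes were lower), and with the replicate block as well, 7 mitochondrial members were (9.73% of all genes). These were mt-Nd1, mt-Nd2, mt-Nd4, mt-Nd5, mt-Cytb, mt-Co1 and mt-Atp6, and the median was then -0.42.

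In the small intestine lamina propria no member passed the edgeR test against the colon lamina propria, where 0.0415% of 12044 genes did; 7 nuclear and 1 mitochondrial member had p under 0.05 before adjustment, and no member was called by DESeq2 or limma-voom. All 13 mitochondrial members had a positive fold change, with a median log2 value of 0.23, and the nuclear median was -0.12. This comparison is not balanced for replicate number, for which the main fit had no term. Both small intestine libraries have number 2, and the colon lamina propria has both numbers. Its mitochondrial share was 1.69% and 1.77% in libraries with number 1 and 2.33% and 2.34% in those with number 2. With the CD3-low clusters left out and the replicate block, the mitochondrial median was -0.01. The KO library, with its high CD3-low share, carried the highest mitochondrial values: mt-Nd5 was at 124 and 182 CPM in the control and KO libraries (log2 fold change 0.37 ± 0.16, edgeR adjusted p 0.367). Sdhaf1 was at 73.1 and 109 CPM in control and KO (0.51 ± 0.18, edgeR adjusted p 0.318), and the KO value was 55.3 CPM without the CD3-low clusters. Cox7a1, the heart and muscle form of a complex IV subunit, was at 9.91 and 3.22 CPM (1.34 ± 0.55, edgeR adjusted p 0.356). Without the CD3-low clusters its control and KO values were 3.15 and 2.38 CPM. On the negative side Ndufb6 was at -0.42 ± 0.13, Atp5d, a subunit of the ATP synthase, at -0.43 ± 0.14 and Uqcrh at -0.40 ± 0.15 (edgeR adjusted p 0.306, 0.31 and 0.327).

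Transfer of Il23r eGFP/eGFP in place of Il23r wt/eGFP cells gave no called change in any member. The edgeR tests with Benjamini-Hochberg adjustment called 0 of 92 nuclear and 0 of 13 mitochondrial members, and 0% of 11636 genes, between KO and control in the colon lamina propria, in the spleen and for the difference of the 2 effects. Unadjusted p under 0.05 were found for 1 member in the colon, 1 in the spleen and 0 for the difference. Over all 12 libraries, with tissue in the model, 0 members and 0% of 12044 genes were called, and 5 nuclear members had an unadjusted p under 0.05. Over all genes, unadjusted p under 0.05 were found for 103 genes in the colon, 120 in the spleen, 92 for the difference and 573 over 12 libraries. DESeq2 called 0 genes in the colon, 2 in the spleen and 3 over 12 libraries, none of them a member, and limma-voom called no member. The absence of a call does not show equal levels.

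The members nearest to a call were small in size or rare. In the colon, Cox4i2, a complex IV subunit whose form is linked to low oxygen, had 0 and 1 UMIs in control libraries 1 and 2 and 25 and 10 UMIs in KO libraries 1 and 2. The edgeR p was 0.00659 before and 1 after adjustment. Of its 40 UMIs in the series, 34 lay in CD3-low cluster 10. Ndufa5, a complex I accessory subunit, was at 128 and 132 CPM in colon control and 140.4 and 173 CPM in colon KO libraries, with no overlap (log2 fold change 0.28 ± 0.18, edgeR adjusted p 1). With 2 libraries on each side, 10 of the 92 nuclear members tested did not overlap there. How many of all genes did not overlap is not given here, so this does not set Ndufa5 apart. In the spleen, Ndufaf4, an assembly factor of complex I, read 38.6 and 44.2 CPM in the control libraries against 31.3 and 30.8 CPM in the KO libraries (-0.45 ± 0.18, edgeR p 0.0431 and adjusted p 1). mt-Co1 was at 3800.4 and 5021 CPM in spleen control and 3376 and 3730.1 CPM in spleen KO libraries (-0.34 ± 0.22, edgeR adjusted p 1). Over 12 libraries Cox7a2l, which joins complexes III and IV into supercomplexes, was at 486 ± 50.8 CPM in KO and 571 ± 32.3 CPM in control libraries (n = 6 each), with a log2 fold change of -0.26 ± 0.10 (edgeR adjusted p 0.913).

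Compared pair by pair within a tissue and replicate number, the direction was not shared either. Of 85 nuclear members of at least 10 CPM, 25 were higher in KO in spleen 1, 69 in spleen 2, 71 in colon 1, 26 in colon 2, 18 in the small intestine and 57 in the epithelium. Of the 13 mitochondrial members, 5 and 4 were higher in the spleen pairs, 8 in each colon pair, 11 in the small intestine and 13 in the epithelium, and with the CD3-low clusters left out 6, 4, 9, 7, 9 and 6. Ndufs5, Ndufa7, Cox7c, Cox6c and mt-Cytb were higher in KO in all 6 pairs and Ndufa10 was lower, against 3.50% and 2.08% of 6908 genes. With the CD3-low clusters left out, Cox7c, Ndufa7 and mt-Cytb were higher in all 6 pairs and Ndufa10, Cox7a2l and Ndufv1 were lower. The shares of all genes above are for all cells, and none is given without these clusters. For mt-Cytb the spleen values were 1745 and 1774 CPM in control 1 and KO 1 and 2361 and 2421 CPM in control 2 and KO 2, gaps smaller than those between the replicate numbers.

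The small intestine and the colon epithelium have 1 library per genotype, so their differences have no replicate check. Members with at least 50 UMIs in both libraries were called different at 1.5-fold, with exact intervals that cover counting error only. In the small intestine 0 of 83 nuclear members were higher in KO and 4 were lower, against 11.7% and 5.70% of 5680 genes. The ratio of KO to control was 0.52 (95% interval 0.46 to 0.58) for Sdhb and 0.58 (95% interval 0.54 to 0.62) for Cox5a, a nuclear subunit of complex IV. Uqcrfs1, the Rieske iron-sulfur protein of complex III, and Atp5f1, a stalk subunit of the ATP synthase, had ratios of 0.65 (95% interval 0.59 to 0.71) and 0.66 (95% interval 0.61 to 0.72). Of 12 mitochondrial members 3 were higher, mt-Atp8, mt-Nd4l and mt-Nd2, with mt-Nd2 at 1.90 (95% interval 1.79 to 2.02). In the epithelium 1 of 87 nuclear members, Ndufa5 at 1.51 (95% interval 1.41 to 1.61), and 3 of 13 mitochondrial members, mt-Nd4l, mt-Atp8 and mt-Nd3, were higher in KO and none was lower, against 6.06% and 2.33% of 8317 genes. CD3-low cells were 1.20% of the control and 38.2% of the KO library of the small intestine, and 0.216% and 2.84% of those of the epithelium. With these clusters left out of the small intestine, Sdhb (0.568) and Cox5a (0.622) were the 2 nuclear members lower in KO, against 4.65% of 4429 genes, while the ratios of Uqcrfs1 and Atp5f1 were 0.716 and 0.727. mt-Atp8, mt-Nd4l and mt-Nd2 were still higher there (2.41, 2.08 and 1.62, against 5.89% of genes). In the epithelium mt-Atp8 (1.61) alone was then higher and no member was lower, against 3.86% and 2.52% of 8184 genes; Ndufa5, mt-Nd4l and mt-Nd3 had ratios of 1.41, 1.35 and 1.17. Cycling cells were 8.49% of the control and 1.74% of the KO library of the small intestine, and their part in these ratios was not tested.

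Nuclear members differed most often between cycling and other cells of the same library, and mostly upward in the cycling cells. Cells with at least 2 UMIs of 12 proliferation genes were taken as cycling, 3609 cells against 29154 others, and the 2 sums of each library were compared with the library as a block. Cycling cells also had more UMIs, with library medians of 2539 to 9374 against 1847 to 5132. The summed nuclear share was higher in the cycling cells in 12 of 12 libraries, for example at 2.97% against 2.52% in spleen control 1 and at 3.83% against 2.86% in the epithelium KO library. The mitochondrial share was higher in 5 of 12. The edgeR test with Benjamini-Hochberg adjustment called 57 of 91 nuclear members higher and 9 lower, against 22.4% and 29.2% of 11193 genes. No mitochondrial member of 13 was higher and 4 were lower, a share near that of all genes. Median log2 fold changes were 0.24 for nuclear members, -0.11 for mitochondrial members and -0.09 for all genes.

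In complex I, 25 of 36 nuclear members were higher and 3 lower; Ndufc2 (0.51 ± 0.05), Ndufb6 (0.51 ± 0.05) and Ndufv1 (0.46 ± 0.07), which holds the flavin that accepts electrons from NADH, were among the higher. In complex II 3 of 4 subunits were higher, 6 of 8 in complex III with 1 lower, 10 of 14 in complex IV with 1 lower, and 10 of 15 in complex V with none lower. Atp5b, the catalytic beta subunit of the ATP synthase, was at 894 to 1283 CPM (mean 1049.7 ± 109, SD, n = 12) in cycling cells and 500.3 to 776 CPM (mean 651 ± 77.1) in the other cells. The ranges did not overlap, and all 12 libraries had the higher value in cycling cells, with a log2 fold change of 0.63 ± 0.05 (edgeR adjusted p 1.67e-10). Cox5b, a zinc-binding nuclear subunit of complex IV, was at 613 to 965 CPM (mean 777 ± 98.9, SD, n = 12) in cycling cells and 353 to 569 CPM (mean 478 ± 64.9) in the other cells, again with no overlap (0.64 ± 0.05, edgeR adjusted p 4.37e-10). Of the 91 nuclear members tested, 8 had ranges that did not overlap. The matching share of all genes is not given here, so this count has no background. Ndufa4 (0.67 ± 0.06), Sdhb (0.63 ± 0.05), Sdhd (0.57 ± 0.05) and Cox5a (0.56 ± 0.05) were each higher in 12 of 12 libraries.

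**Figure D4:**
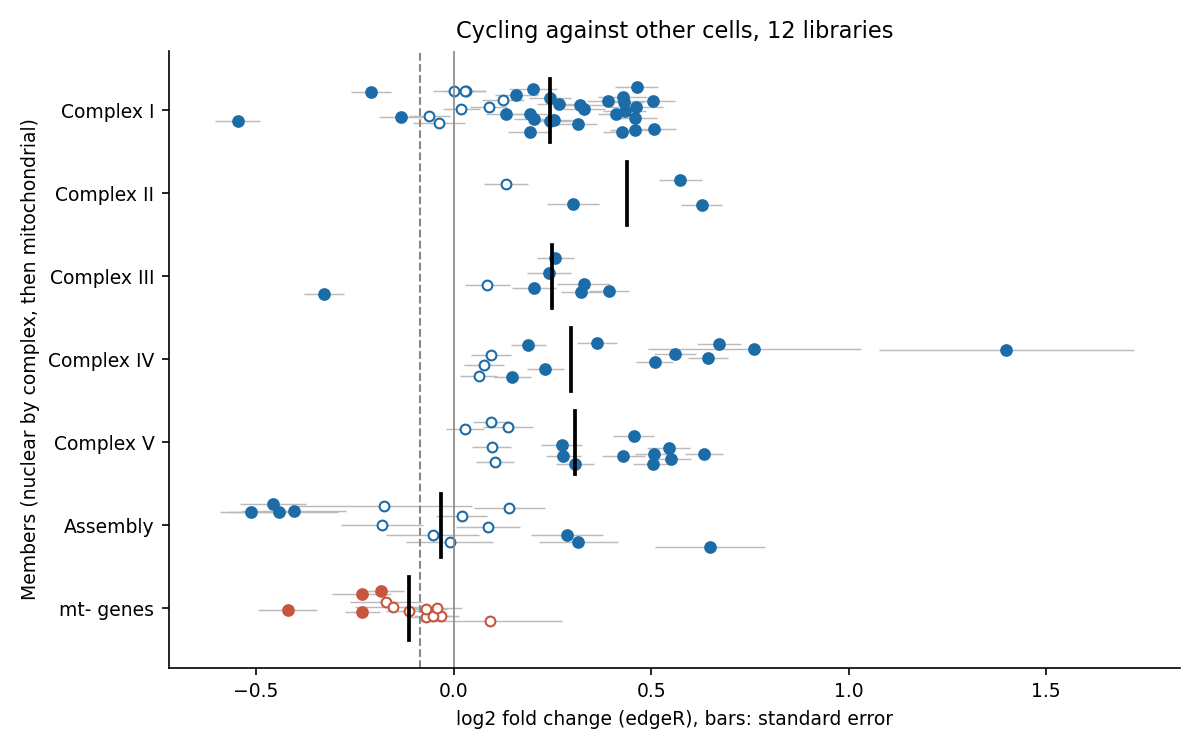
Log2 fold change of cycling over other cells of the same library (edgeR with library as a block, horizontal axis) for each member, by complex and gene group, with bars of 1 standard error, filled marks for adjusted p under 0.05, a black line at each group's median and a dashed line at the median of all genes. Nuclear members lay mostly above 0 (median 0.24, 57 higher of 91, against 22.4% of all genes); the mitochondrial median of -0.11 and the 4 of 13 lower were near the values of all genes (median -0.09, 29.2% lower), and Cox6a2 lies outside the axis.

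Of the 9 nuclear members that were lower in cycling cells, 4 help build or join the complexes and 5 are subunits. Ndufa6, a subunit, was at 237 to 378 CPM (mean 295 ± 48.0, SD, n = 12) in cycling cells and 345 to 497 CPM (mean 409.7 ± 50.5) in the other cells. It was lower in cycling cells in 12 of 12 libraries, with a log2 fold change of -0.55 ± 0.06 (edgeR adjusted p 4.16e-08). Cox7a2l fell by 0.51 ± 0.06, also in every library, and of the assembly factors Sdhaf4 (-0.46 ± 0.08), Sdhaf1 (-0.44 ± 0.15) and Atp5sl (-0.41 ± 0.13) were called lower, while Ndufaf5, Ndufaf6 and Ndufaf7 were called higher. Uqcrh (-0.33 ± 0.05), Ndufa7 (-0.21 ± 0.05) and Ndufb4 (-0.13 ± 0.06) were the remaining lower subunits beside the rare Cox6a2. The 4 lower mitochondrial members were mt-Nd5 (-0.42 ± 0.08), mt-Co1 (-0.23 ± 0.04), mt-Nd2 (-0.23 ± 0.07) and mt-Nd4 (-0.18 ± 0.06). With the CD3-low clusters left out, 8 mitochondrial members were lower, against 33.6% of all genes. In cells of at least 4000 UMIs alone, 43 nuclear members were higher and 6 lower (18.4% and 23.2% of all genes), the nuclear median was 0.15, and the share was again higher in 12 of 12 libraries. Depth was still not matched there, with library medians of 6542 to 9809 UMIs in cycling and 4637 to 6042 in other cells. The small intestine KO library had 9 such cycling cells. By promoter motif, 23 of 47 windows of higher members (48.9%), 5 of 7 of lower (71.4%) and 12 of 21 of uncalled members (57.1%) held 1 of the 3 motifs.

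Partner pathways were read from lists of mitochondrial genes. In cycling cells, where 22.4% of all genes were higher and 29.2% lower, 11 of 18 genes of the tricarboxylic acid cycle and pyruvate dehydrogenase were higher and none lower, as were 48 of 76 genes of the mitochondrial ribosome with 6 lower, 11 of 23 import genes with none lower and 8 of 10 carriers with 1 lower. Fh1, the fumarase of the cycle, had a log2 fold change of 1.11 ± 0.08 and Mrpl51, a protein of the large mitochondrial ribosome subunit, 0.60 ± 0.06 (edgeR adjusted p 3.66e-11 and 6.51e-08). Of 7 antioxidant genes 3 were lower, among them Prdx5 at -0.33 ± 0.06 and Sod2 at -0.33 ± 0.06, and of 16 cytochrome oxidase assembly genes 1 was higher and 3 lower. In the colon lamina propria against spleen, 14.6% of all genes were higher and 10.4% lower. The lists gave 0 higher and 2 lower of 18 in the tricarboxylic acid cycle, 1 and 7 of 76 in the ribosome, 1 and 3 of 23 in import, 2 and 5 of 16 in cytochrome oxidase assembly. Of genes that act on mitochondrial DNA and its transcription 1 was higher and 3 lower of 13: Polg2, an accessory subunit of the mitochondrial DNA polymerase, was at 45.9 CPM in the colon and 5.83 CPM in the spleen (log2 fold change 3.23), while Polrmt, the mitochondrial RNA polymerase, fell by 1.35 on the log2 scale. Of 7 antioxidant genes 3 rose, Gpx4 by 1.09, Sod2 by 0.83 and Prdx5 by 0.64. Of the 5 hypoxia-linked and supercomplex partners, 3 rose: Hif1a, the oxygen-sensitive transcription factor subunit, was at 311 CPM in the colon and 58.3 CPM in the spleen (log2 fold change 2.66), and Egln3, one of its hydroxylases, and Higd1a, which binds complex IV, rose by 1.95 and 0.71. Gabpb1, a subunit of GABP, rose by 2.63 and was 1 of 10 biogenesis regulators called.

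Tissue-restricted subunit forms were rare, and 4 of the 6 were counted mostly in cluster 10, where T cell markers are low. Cox7b2 and Cox8c were not analysed here. Cox6a2, the muscle form of a complex IV subunit, had 534 UMIs in all, of which 481 (90.1%) were in cluster 10. That cluster held 1.51% of all UMIs. Cox4i2 had 34 of 40 UMIs there, Cox7a1 103 of 347, and Cox6b2, known from testis, 25 of 190. All 5 UMIs of Cox8b and all 13 of Ndufa4l2, a relative of Ndufa4 induced by low oxygen, were in cluster 10. The ubiquitous partner of each was present everywhere, for example Cox4i1 at 1728 CPM in cluster 10 and at 723 to 1281 CPM in the other clusters, beside Cox6a1 (597 CPM over libraries), Cox6b1 (645 CPM), Cox7a2 (431 CPM) and Cox8a. The mitochondrial share in cluster 10 was 8.13%. Clusters were made from these same cells, so these values describe and test nothing.

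**Figure D5:**
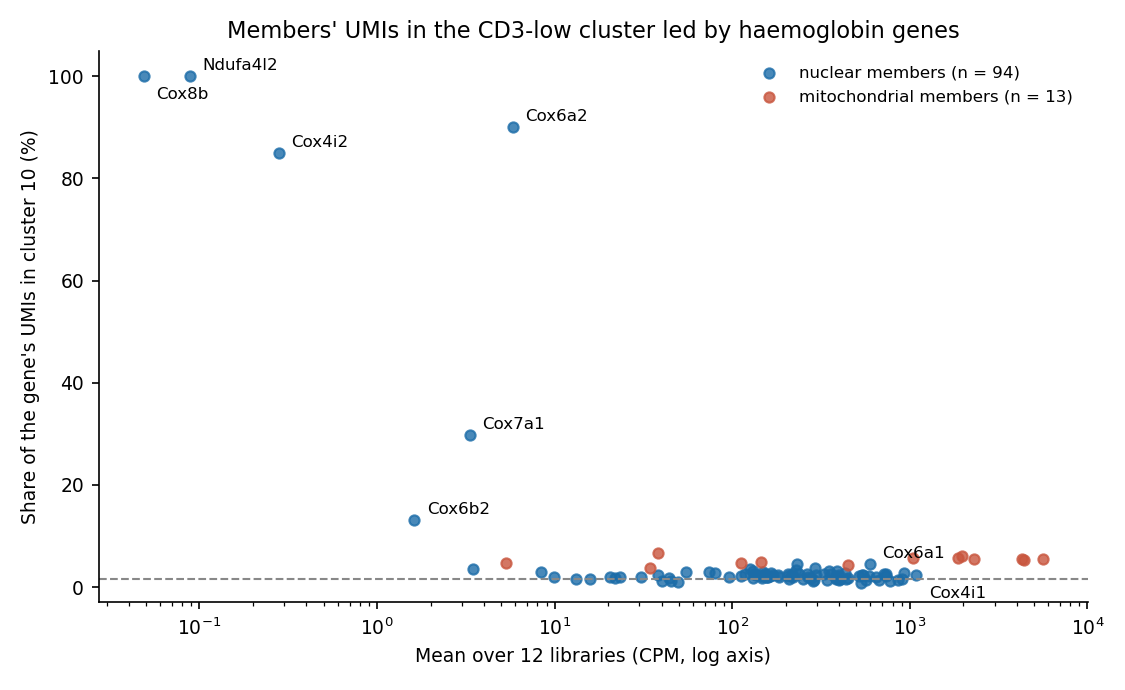
Share of each member's UMIs that lay in cluster 10 (percent, vertical axis) against its mean level over 12 libraries (CPM, log axis), 1 point per member, nuclear and mitochondrial members in different colours, with a dashed line at the cluster's share of all UMIs (1.51%). Cox6a2 was at 90.1% and Cox4i2 at 85.0%, while the abundant nuclear members lay near the dashed line and the mitochondrial members above it at 3.83% to 6.73%.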

How the data were processed

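The deposited values were counts of UMIs: per the labels' protocols, the authors used 10x Chromium 3′ reagents (version 2). Cell Ranger 2.0.2 and mm10 are named in the submitters' processing notes, and the sources used here do not give cell or gene filters. The matrix held 18601 genes and 32763 cells. Each cell's library came from the deposited cell table, whose genotype and tissue columns (2) were not used, and groups came from the labels. All cells entered the main results, and no doublet caller was run. The members and gene lists were chosen with earlier results of these data known.

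UMIs were summed per gene and library (per gene, library and cycling state for the cycling comparison) and tested with edgeR 4.0.16 in R 4.3.3 (filterByExpr, TMM, robust quasi-likelihood fit, Benjamini-Hochberg over all genes, threshold 0.05). Spleen and colon lamina propria were fitted alone (8 libraries) and the other comparisons over 12, so that tissues with 1 library per genotype share the spread of the others. Groups without replicates were compared as ratios of CPM (50 UMIs, 1.5-fold), with exact 95% intervals, and, chosen after seeing the data, without CD3-low clusters. Cells were clustered with scanpy 1.11.5, and clusters whose T cell markers lay over 1 log2 unit below the rest were called CD3-low. Gene positions came from GENCODE vM21. Alternatives were DESeq2 1.42.0, limma-voom (limma 3.58.1), size factors of DESeq2, no filter, CD3-low, cycling or high-mitochondrial cells left out, thinning to 3107528 UMIs, library sizes without mt- and ribosomal genes, each library left out, and the replicate block. Leaving out CD3-low clusters with the block, keeping cells of at least 4000 UMIs and using library totals without scaling factors were chosen after seeing the data. The test scripts were tested on simulated data.

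Replicate numbers were taken as pairing the libraries in the pair by pair comparison and in the replicate block. The reason is that the batch column of the deposited cell table equals the replicate number for all 32763 cells. The main fits of tissue and genotype had no term for the replicate number, so differences between the numbers entered the spread of those tests. Deviations from the group means of libraries with the same number correlated at 0.28 to 0.60 over 11636 genes in all 6 pairs of groups.

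Genes were named by rule: the 13 mitochondrial genes, the 2 highest nuclear members of each complex, the tissue-restricted forms with their partners, per comparison up to 6 called members of at least 10 CPM with the largest fold change each way or, where none passed, the 3 with the smallest p each way, and up to 3 genes per partner list. Other subunits named from the cycling comparison or the settings were chosen after their values were seen. Values of 1 nuclear member are not reported here by name and it is not drawn in the plot of members by library; it is included in all counts, medians and summed shares.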

Additional observations from a re-analysis of the deposited data

Results flagged for a closer look

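The summed mitochondrial share of UMIs was lower in KO than in control in both spleen pairs and higher in both pairs of the colon lamina propria. KO minus control was -0.100 and -0.395 percentage points in spleen pairs 1 and 2, and 0.0810 and 0.00523 percentage points in colon pairs 1 and 2. In colon pair 2 the difference was smaller than the half-widths of the 95% Wilson intervals of both shares (0.00867 for control and 0.00989 for KO), which cover counting error only, so its sign is not set by these counts. What drew attention is that every pair of one tissue moved one way and every pair of the other the opposite way. This difference between the tissues was not tested on the summed share. Among single mitochondrial genes, the edgeR test of the difference of the 2 effects with Benjamini-Hochberg adjustment called none of 13, and none had an unadjusted p under 0.05. With the CD3-low clusters left out the colon pairs were no longer of 1 sign, at 0.171 and -0.0268.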

How the results depend on the processing

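Over all alternatives, 663 counts of called members stayed within 1.5 times the main count and 41 did not. Among the members named by rule, no called direction was reversed, and the other called members were not part of this check. Many of the counts that stayed were 0 in the main result and again 0. These were 80 counts each for KO against control in the colon lamina propria, in the spleen and for the difference of the 2 effects. KO against control over 12 libraries gave 92 more and the small intestine 100. For colon lamina propria against spleen, 61 counts stayed and 19 did not. For colon lamina propria against spleen, the counts higher and lower were 7 and 6 with the replicate block, 7 and 7 with that block and CD3-low clusters left out, and 1 and 11 with library totals. DESeq2 gave 6 higher (all genes 1887 of 11636), leaving out CD3-low clusters 4 higher (all genes 1849 of 11007), and thinning 1 lower (all genes 834 of 10037). Leaving out each library gave 1 to 2 higher and 0 to 2 lower. For the colon epithelium, nuclear members higher were 0 when thinned (all genes 430 of 10435) or with replicate 2 alone and 9 with library totals. Nuclear members lower were 2 with DESeq2 (all genes 1654 of 12044), and leaving out each library gave 0 to 6 higher and 0 to 1 lower. Mitochondrial members lower were 2 with DESeq2, 2 without CD3-low clusters (all genes 1293 of 11218) and 2 without high-mitochondrial cells (all genes 1058 of 11997). They were 7 without CD3-low clusters and with the block, and 0 to 1 when leaving out each library. For cycling cells, nuclear members lower were 5 without the library block, and mitochondrial members lower were 8 without CD3-low clusters, 2 without the library block, 2 with library totals and 4 to 7 when leaving out each library, with 7 without colon lamina propria KO 2 or epithelium KO 2. Of the tested comparisons of KO with control, none gave a called member under any alternative run. For KO against control with 1 library each, leaving out CD3-low clusters gave 2 nuclear members lower in the small intestine, and 0 nuclear and 1 mitochondrial member higher in the epithelium. The replicate block changed no other count by over 1.5 times. The causes were not tested, and many of these counts are given without the share of all genes called under the same setting. Depth limits the rare forms, such as Cox8b with 5 UMIs in all.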
